A study of Mus musculus with 55 samples.

Results

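Levels of 4 genes that encode enzymes of ketone body use, Bdh1, Oxct1, Acat1 and Bdh2, were followed in infarcted mouse left ventricle with and without diabetes. The genes were taken by symbol, each matched to 1 Ensembl identifier in the count tables of both days (Bdh1 ENSMUSG00000046598, Oxct1 ENSMUSG00000022186, Acat1 ENSMUSG00000032047 and Bdh2 ENSMUSG00000028167). They are 4 of 56941 genes in the day 7 table and of 57186 in the day 28 table, and all 4 passed the low-count filter on both days. All 55 libraries came from C57BL/6J mice whose coronary artery had been permanently ligated, so the non-diabetic controls carried an infarct as well. By the sample titles, each of the 3 groups at day 7 after infarction (non-diabetic, type 1 diabetic, type 2 diabetic) held 8 libraries, and at day 28 they held 11, 10 and 10. The library names carry hi STZ for type 1 and lo STZ HFFD for type 2, and what else sets the 2 models apart cannot be told from the diabetes itself. Ages are not stated, the design text names day 7 only, and the labels do not say that replicates are separate animals, so each p-value measures the spread between libraries, which may be technical. By the library names each day was its own sequencing project, and an effect of the day cannot be told apart from one of the project.

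The heart burns ketone bodies made by the liver. In mitochondria, the dehydrogenase encoded by Bdh1 oxidises beta-hydroxybutyrate to acetoacetate, the CoA transferase SCOT encoded by Oxct1 activates acetoacetate in the step that commits it to oxidation, and the thiolase encoded by Acat1 splits acetoacetyl-CoA into acetyl-CoA. The thiolase also acts in the breakdown of isoleucine. Bdh2 encodes a cytosolic dehydrogenase of the same family as Bdh1. Use of ketone bodies is known to change in failing and in diabetic hearts.

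Of the 4 members, Bdh1 had the largest fitted difference from non-diabetic tissue in both models on both days, and its windows upstream of transcription are shown for that reason. RefSeq on GRCm38.p6 gives the gene 2 starts on the plus strand, and the counts per gene do not separate transcripts of the first start from those of the second. The 250 bases upstream of each start lie at chr16:31422047-31422296 and chr16:31428503-31428752 in that build, which is not the mm39 build of the files.
Bdh1, first start: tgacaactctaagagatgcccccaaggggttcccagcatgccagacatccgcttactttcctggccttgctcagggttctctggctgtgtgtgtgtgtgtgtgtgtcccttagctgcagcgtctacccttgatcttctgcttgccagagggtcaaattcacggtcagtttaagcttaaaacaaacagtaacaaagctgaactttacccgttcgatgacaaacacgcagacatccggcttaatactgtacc
Bdh1, second start: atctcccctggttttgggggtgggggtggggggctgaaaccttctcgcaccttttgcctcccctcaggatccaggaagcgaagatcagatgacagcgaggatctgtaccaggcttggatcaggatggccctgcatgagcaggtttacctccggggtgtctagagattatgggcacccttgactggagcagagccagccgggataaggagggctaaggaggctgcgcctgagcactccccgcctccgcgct
Letters would be in capitals where a nuclear receptor motif was found on either strand, and none was. The motifs searched were the half-site AGGTCA, held by 14 percent of 32851 windows of the same length, its direct repeat spaced by 1 base AGGTCANAGGTCA (0.0335 percent) and the extended half-site TCAAGGTCA (0.387 percent), the latter ones containing the first. The single windows of Oxct1 and Bdh2 held none of the 3 motifs either, and no window was at hand for Acat1. This says only that these letters are absent from these windows.

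Library totals ran from 10.8 to 51.2 M (mega) counts at day 7 and from 48.1 to 92.9 M at day 28. The members lie within the range that such totals measure well, with between 208 and 86103 counts per library for Bdh1, Oxct1 and Acat1 and between 35 and 511 for Bdh2. The content of heart muscle varied between libraries. The summed CPM (counts scaled to library size) of 20 cardiomyocyte markers ranged from 12285 to 41480 in non-diabetic, 3344 to 30253 in type 1 and 8696 to 30332 in type 2 libraries at day 7. At day 28 it ranged from 44635 to 90748, 49931 to 78131 and 16160 to 85829, and none of the 20 markers was at 0 throughout a group. The lowest libraries were type 1 replicate 4 at day 7, which also had the highest summed adipocyte (594 CPM) and B cell (4092 CPM) markers of its day, and type 2 replicate 4 at day 28, with B cell markers at 7681 CPM. In such bulk tissue, fewer cells of a type and less RNA per cell cannot be told apart.

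Per length, the order of the 4 genes was Oxct1, Acat1, Bdh1 and Bdh2 by median in all 6 groups. In non-diabetic tissue at day 7 the median CPM per kb of exon was 110 for Oxct1, 25.9 for Acat1, 7.83 for Bdh1 and 0.812 for Bdh2, and the ranges over the 8 libraries did not overlap. At day 28 the non-diabetic medians were 274, 89.8, 41.0 and 1.04 CPM per kb, again without overlap over 11 libraries. Neighbours in this order met in 2 groups. In type 1 tissue at day 7 the lowest Oxct1 library (28.8 CPM per kb) fell within the Acat1 range (16.9 to 30.6). In type 2 tissue at day 28 the Oxct1 range (73.7 to 292) met that of Acat1 (28.0 to 123), which met that of Bdh1 (5.75 to 37.0). The scaling was done within each day, and the higher day 28 levels of the 3 mitochondrial enzyme genes stand beside the higher cardiomyocyte markers of that day.

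**Figure D1:**
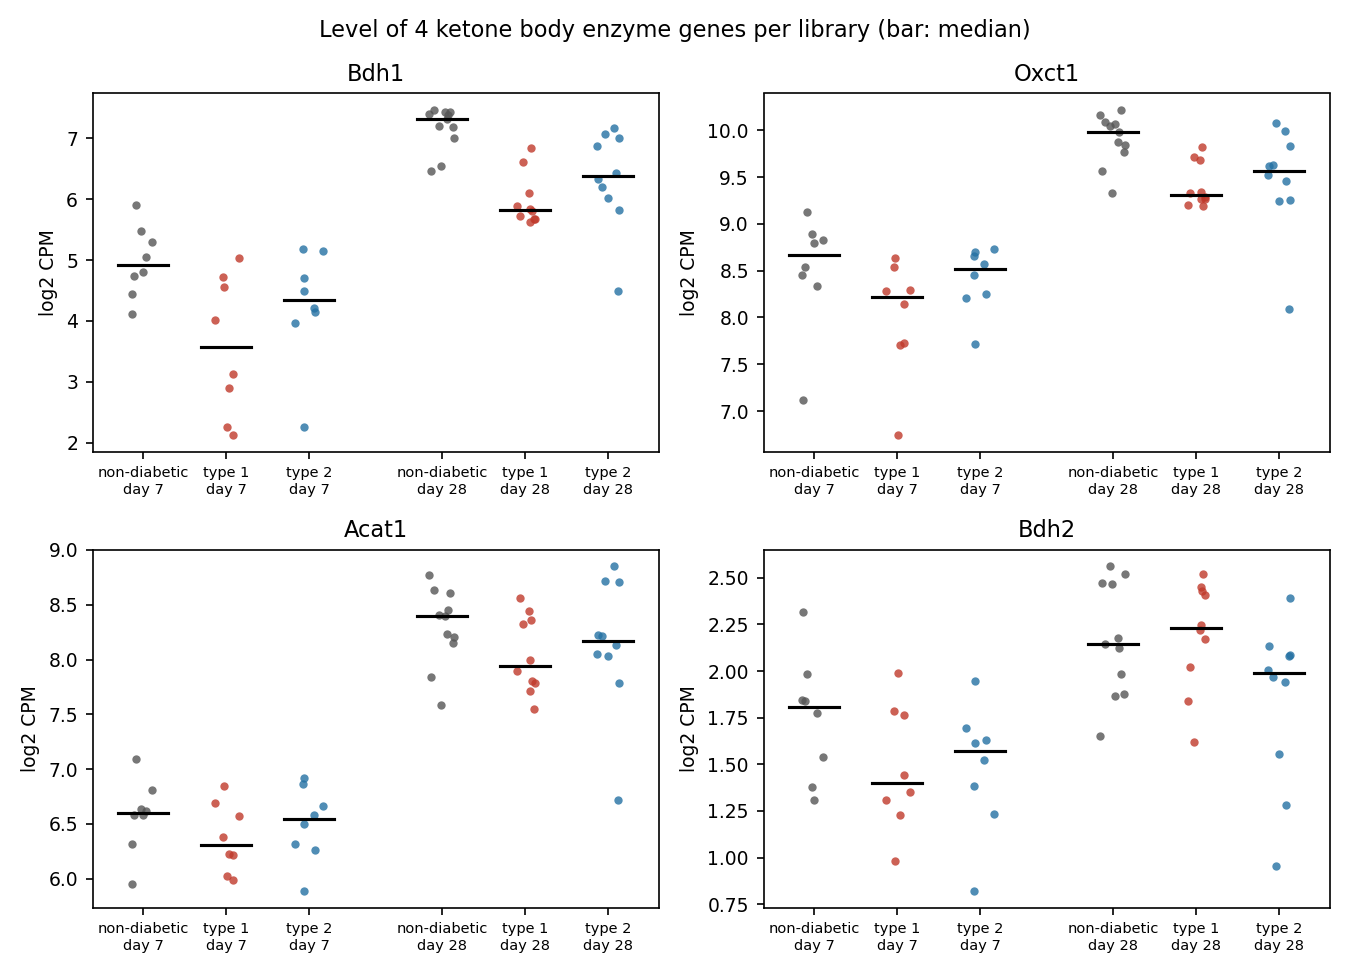
Log2 CPM of Bdh1, Oxct1, Acat1 and Bdh2 in each of the 55 libraries (points) by group, with the group median as a bar; the vertical scale differs between panels. Bdh1 has the widest gap between non-diabetic and type 1 libraries at day 28 (medians 7.32 and 5.82), while the Bdh2 groups overlap throughout.

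Type 1 diabetic against non-diabetic infarcts at day 7 asks how the type 1 model alters the early healing infarct. Bdh1 was 2.19-fold lower in type 1 tissue and was the 1 member that passed the test. Oxct1, Acat1 and Bdh2 all had fitted values below 0 without passing it. In addition, 3 other ketone pathway genes rose, all of them at low or moderate levels.

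Bdh1 log2 CPM at day 7 was 4.12 at the lowest (replicate 5), 4.93 at the median and 5.91 at the highest in non-diabetic tissue, and 2.12, 3.57 and 5.03 in type 1 tissue. Type 1 libraries were lower in 7 of 8 cases than the non-diabetic mean, 5 lay below every non-diabetic library, and replicates 7, 4, 6 and 1 made up the low end. The log2 fold change was −1.13 (SE 0.397, Benjamini-Hochberg adjusted p = 0.0413 in the quasi-likelihood test of edgeR, as for every adjusted p of 1 gene below), where 11.4 percent of the 18165 genes tested were called lower. The call was lost on leaving out any 1 of non-diabetic replicates 2, 3, 4 and 6 or type 1 replicates 1, 2, 4, 6 and 7, with values of −1.14 to −0.96 and adjusted p of 0.0523 to 0.103. It was also lost without the low-count filter (adjusted p = 0.0536), with only the 2 groups in the fit (0.0518) and with libraries summed by the first number of their name (0.0714). With the mean of the 20 cardiomyocyte markers as a covariate, Bdh1 was at −0.50 (SE 0.222, adjusted p = 0.115). With the mean of 12 mitochondrial comparison genes as the covariate it was at −0.68 (SE 0.188, adjusted p = 0.0123, with 11.2 percent of genes called lower in that fit). Both covariates moved with the groups, and their part in the difference was not tested further.

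Oxct1, the gene of the committing transferase, ranged from 7.12 through a median of 8.67 to 9.13 in non-diabetic and from 6.74 through 8.22 to 8.63 in type 1 libraries on the log2 CPM scale. The groups overlapped in all but 1 type 1 library, and the log2 fold change was −0.50 (SE 0.231, adjusted p = 0.12). Without non-diabetic replicate 5, the lowest of its group, Oxct1 was at −0.63 (adjusted p = 0.0209). Acat1 was at −0.21 (SE 0.152, adjusted p = 0.333), with libraries between 5.95 and 7.09 in non-diabetic and between 5.99 and 6.84 in type 1 tissue. Bdh2 was at −0.27 (SE 0.171, adjusted p = 0.274), with libraries between 1.31 and 2.31 and between 0.98 and 1.99. Given the cardiomyocyte covariate, Bdh2 was lower by −0.47 (SE 0.161, adjusted p = 0.0437, with 9.94 percent of all genes called lower in that fit), beside Bdh1 at −0.50, Oxct1 at −0.07 and Acat1 at 0.07.

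Of 12 other ketone pathway genes 9 were tested, of which 3 rose and 0 fell (median log2 fold change 0.25, against −0.01 over all genes), where 11.1 percent of all genes were called higher. Slc16a6, a monocarboxylate transporter linked to ketone body export in liver, rose by 0.35 (SE 0.0797, adjusted p = 0.00352), and 7 of 8 type 1 libraries lay above every non-diabetic one. Hcar2, a cell surface receptor for beta-hydroxybutyrate and niacin, rose by 1.59 (SE 0.496, adjusted p = 0.0229, higher in 8 of 8), from a median of 7 to 22 counts. Without type 1 replicate 4, its highest library (74 counts), Hcar2 was at 1.27 (adjusted p = 0.0566). That library had summed adipocyte markers of 594 CPM, against a type 1 median of 0.178. The summed macrophage markers were also higher in type 1 tissue (2496 to 3266 CPM against 1591 to 2631). The part of either marker set in the Hcar2 value was not tested. Hmgcll1, a lyase gene of the list, rose by 0.96 (adjusted p = 0.0389, higher in 8 of 8), from a median of 15 to 27 counts, and lost its call on leaving out any of 8 single libraries, down to 0.80 without type 1 replicate 6 (adjusted p = 0.0963). Oxct2a, Oxct2b and Ffar3 had at most 8 counts in any library and were not tested.

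Among 16 genes of branched-chain amino acid breakdown 4 were lower and 0 higher (median −0.22), where 11.4 percent of all genes were called lower. The isoleucine branch of this breakdown feeds the mitochondrial thiolase encoded by Acat1. Bckdha, a subunit of the branched-chain ketoacid dehydrogenase, fell by 0.68 (SE 0.143, adjusted p = 0.00192), and 7 of 8 type 1 libraries lay below every non-diabetic one. Ivd, which acts on isovaleryl-CoA from leucine, fell by 0.59 (SE 0.144, adjusted p = 0.00516). Auh and Mccc2, later steps of leucine breakdown, fell by 0.26 (adjusted p = 0.0227) and 0.32 (adjusted p = 0.0437), and lost their calls on leaving out any of 3 and of 14 single libraries, with adjusted p up to 0.0613 and 0.137. Among 7 regulators 2 were lower, against the same 11.4 percent of all genes: the mitochondrial deacetylase Sirt3 at −0.41 (adjusted p = 0.0241) and the nuclear receptor Ppard at −0.22 (adjusted p = 0.0311), which lost their calls without any of 4 and of 7 single libraries. Their adjusted p then reached 0.0719 and 0.085, both without a non-diabetic library. The fatty acid receptor gene Ppara was at −0.73 (adjusted p = 0.0917). Beside these, 0 of 12 mitochondrial comparison genes and 0 of 20 cardiomyocyte markers were called by edgeR (2 and 5 at an unadjusted p under 0.05), although 12 of 12 and 19 of 20 had fitted values below 0 (medians −0.21 and −0.45). Markers of other cell types did move in this comparison. Of 8 fibroblast markers 6 were lower and 0 higher (median −0.66), with summed levels of 25735 to 52528 CPM in type 1 against 48885 to 63114 in non-diabetic libraries. Of 6 erythroid markers 5 were higher (median 2.28, summed 142 to 2334 CPM against 63.0 to 308), namely the globin genes Hba-a1, Hba-a2, Hbb-bs and Hbb-bt and the heme synthesis gene Alas2. Of 8 macrophage markers 6 were higher (median 0.34), where 11.1 percent of all genes were called higher. Of 4 adipocyte markers tested 0 were called, with 4 of 4 fitted above 0 (median 4.02), all at an unadjusted p under 0.05. Their summed medians were 0.178 CPM in type 1 and 0.295 CPM in non-diabetic libraries, with type 1 replicate 4 at 594 CPM. The part of these markers in the members' values was not tested.

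Type 2 diabetic against non-diabetic infarcts at day 7 asks the same of the type 2 model. None of the 4 members passed. Bdh1 had the lowest fitted value, and its interval reached from a clear fall to a small rise.

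Bdh1 in type 2 tissue at day 7 was 2.26 at the lowest (replicate 7), 4.35 at the median and 5.19 at the highest on the log2 CPM scale. Replicate 7 lay far below the other 7, and 2 libraries lay below every non-diabetic one. The log2 fold change was −0.62 (SE 0.392, 95% interval −1.39 to 0.15, adjusted p = 0.364). Of all genes 7.35 percent were called in either direction, against 0 of the 4 members, which also had no unadjusted p under 0.05 (smallest 0.127) and 0 calls by DESeq2 and by limma-voom. Oxct1 was at −0.16 (95% interval −0.61 to 0.29), Acat1 at −0.07 (−0.37 to 0.22) and Bdh2 at −0.27 (−0.61 to 0.07). Slc16a7, a monocarboxylate transporter with high affinity for its substrates, was the 1 other ketone pathway gene of 9 to rise, by 0.51 (SE 0.132, adjusted p = 0.0196, higher in 8 of 8). None of the branched-chain, regulator and mitochondrial comparison genes was called by edgeR (7 of 16, 1 of 7 and 0 of 12 had an unadjusted p under 0.05), with list medians of −0.16, −0.06 and −0.13 against −0.03 over all genes. Markers of other cell types moved here as well. Of 8 macrophage markers 4 were higher (median 0.40), and of 6 endothelial markers 1 was higher. No fibroblast marker was called, with 8 of 8 fitted below 0 (median −0.41) and 6 at an unadjusted p under 0.05. No erythroid marker was called either, with 6 of 6 fitted above 0 (median 1.26), all at an unadjusted p under 0.05. The part of these markers in the members' values was not tested.

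Between the 2 diabetic models at day 7, no member passed in edgeR, DESeq2 or limma-voom or had an unadjusted p under 0.05 (smallest 0.154), where 2.71 percent of all genes were called. Bdh1 was at −0.51 in type 1 relative to type 2 tissue (95% interval −1.28 to 0.26), Oxct1 at −0.34 (−0.79 to 0.11), Acat1 at −0.14 (−0.43 to 0.16) and Bdh2 at 0.00 (−0.33 to 0.34). Acat2, a cytosolic thiolase with a near-identical copy in Acat3 so that its counts are uncertain, was the 1 ketone pathway gene called. It was higher in type 1 tissue by 0.42 (SE 0.105, adjusted p = 0.0307), and leaving out any 1 of 7 libraries removed the call (adjusted p up to 0.0795, without type 1 replicate 6).

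Type 1 diabetic against non-diabetic infarcts at day 28 addresses the later scar. Bdh1 was 2.25-fold lower, and 8 of 10 type 1 libraries were under the lowest non-diabetic one. Oxct1 was 1.41-fold lower in mean level but stood just outside the threshold. Acat1 and Bdh2 did not pass.

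Bdh1 log2 CPM at day 28 was 6.45 at the lowest (replicate 8), 7.32 at the median and 7.47 at the highest in the 11 non-diabetic libraries, and 5.62, 5.82 and 6.83 in the 10 type 1 libraries. The non-diabetic libraries were high except for replicates 8 and 3, and in type 1 tissue replicates 4 and 10 lay above the other 8. The log2 fold change was −1.17 (SE 0.222, adjusted p = 0.00242), with all 10 type 1 libraries below the non-diabetic mean, where 1.41 percent of 18901 genes were called lower. The call was kept without any 1 of the 31 libraries of that day, with values of −1.29 to −1.13. It was lost with libraries summed by the first number of their name (−0.98, adjusted p = 0.166, from fewer samples). With the cardiomyocyte covariate Bdh1 was lower by −0.99 (SE 0.116, adjusted p = 1.85e-06, with 3.81 percent of genes called lower), and with the mitochondrial covariate the call was also kept (SE 0.108, adjusted p = 5.18e-07, with 4.54 percent).

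Oxct1 ranged from 9.33 through a median of 9.98 to 10.22 in non-diabetic and from 9.19 through 9.31 to 9.82 in type 1 libraries. All 10 type 1 libraries lay below the non-diabetic mean and 6 below every non-diabetic library. Its log2 fold change was −0.50 (SE 0.151, adjusted p = 0.0549), and it passed when any 1 of 8 libraries was left out. These were non-diabetic replicates 3 and 8, type 1 replicates 1, 4 and 10 and type 2 replicates 4, 5 and 8, with values of −0.55 to −0.50 and adjusted p of 0.00787 to 0.0492. With the cardiomyocyte covariate it was lower by −0.36 (SE 0.0479, adjusted p = 1.85e-05). Acat1 was at −0.25 (SE 0.18, adjusted p = 0.457), with libraries from 7.59 to 8.77 in non-diabetic and from 7.55 to 8.56 in type 1 tissue. Bdh2 was at 0.02 (SE 0.146, 95% interval −0.27 to 0.31), with overlapping libraries from 1.65 to 2.56 and from 1.62 to 2.52.

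Of the 9 other ketone pathway genes tested 0 were called by edgeR (1 at an unadjusted p under 0.05), and the list median was −0.13. Among 16 branched-chain genes 2 were lower and 0 higher (median −0.23, with 16 of 16 fitted below 0), where 1.41 percent of all genes were called lower. They were Bckdhb at −0.47 (SE 0.124, adjusted p = 0.0266) and Dbt at −0.47 (SE 0.126, adjusted p = 0.0299), both parts of the branched-chain ketoacid dehydrogenase complex. The calls were lost without any of 6 and of 11 single libraries, with adjusted p up to 0.0599 and 0.0629, both without type 1 replicate 5. None of the 7 regulators and none of the 12 mitochondrial comparison genes was called by edgeR (1 and 0 at an unadjusted p under 0.05), the latter with a median of −0.14 and 12 of 12 fitted below 0. Of 20 cardiomyocyte markers 1 was called, Myh7, the slow myosin heavy chain gene, higher at 0.73, while the list median was −0.24. Of 8 fibroblast markers 1 was higher (median 0.21), and of 8 macrophage markers 1 was higher (median 0.10). In this comparison 759 of 18901 genes were called in either direction, 267 of them lower. The part of these markers in the members' values was not tested.

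Type 2 diabetic against non-diabetic infarcts at day 28 showed the same member past the threshold, at a smaller fitted value. Bdh1 was 1.62-fold lower. Oxct1, Acat1 and Bdh2 were below 0 in the fit and did not pass. This comparison and the type 1 comparison share their 11 control libraries, so their values are not independent.

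Bdh1 in type 2 tissue at day 28 was 4.48 at the lowest (replicate 4), 6.38 at the median and 7.17 at the highest. Replicate 4 stood apart at the low end, 6 of 10 libraries lay below every non-diabetic library, and 4 overlapped. The log2 fold change was −0.70 (SE 0.219, adjusted p = 0.0364, lower in 9 of 10, with 3.5 percent of genes called lower). The call was lost on leaving out any 1 of non-diabetic replicates 2, 4, 5, 6, 7, 9 and 11 or type 2 replicates 1, 6, 7, 9 and 10, with values of −0.70 to −0.64 and adjusted p of 0.0508 to 0.0692. It was kept without replicate 4, at −0.59. It was also lost without the low-count filter (adjusted p = 0.0517), with only the 2 groups in the fit (0.0582), with the replicate number as a block (0.123) and with libraries summed by name (0.117). With the cardiomyocyte covariate Bdh1 was lower by −0.41 (SE 0.12, adjusted p = 0.0255, with 3.75 percent of genes called lower).

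Oxct1 ranged from 8.09 (replicate 4) through a median of 9.57 to 10.08 in type 2 libraries, and 3 lay below every non-diabetic one. Its log2 fold change was −0.37 (SE 0.151, adjusted p = 0.111). Without type 2 replicate 5, its highest library, it was at −0.44 (adjusted p = 0.0482). Acat1 was at −0.09 (SE 0.18), with type 2 libraries from 6.72 to 8.86 on both sides of the non-diabetic range, and the cardiomyocyte covariate turned it to 0.19 (SE 0.0653, adjusted p = 0.0546). Bdh2 was at −0.30 (SE 0.147, adjusted p = 0.188), with type 2 libraries from 0.96 to 2.39.

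Of the 9 other ketone pathway genes tested 0 were called by edgeR (1 at an unadjusted p under 0.05), and the list median was −0.10. Ppargc1b, which encodes a coactivator of mitochondrial genes, was the 1 regulator of 7 called, at −0.84 (SE 0.238, adjusted p = 0.0202, lower in 10 of 10). Acadsb, which acts in isoleucine breakdown, was the 1 branched-chain gene of 16 called, at −0.25 (SE 0.0707, adjusted p = 0.0216, lower in 10 of 10). The median of the branched-chain list was −0.18, that of the mitochondrial comparison genes −0.13 with 0 called by edgeR (0 at an unadjusted p under 0.05), and that of the cardiomyocyte markers −0.28 with 1 called, Csrp3 at −0.47. Of 8 macrophage markers 4 were higher (Fcgr1, C1qa, C1qb and Cd14, list median 0.48), where 7.21 percent of all genes were called higher. Of 6 endothelial markers 2 were higher. No B cell marker was called, with 6 of 6 fitted above 0 (median 1.23) and 2 at an unadjusted p under 0.05. No fibroblast marker was called either, with 5 of 8 fitted above 0 and 3 below. The part of these markers in the members' values was not tested.

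**Figure D2:**
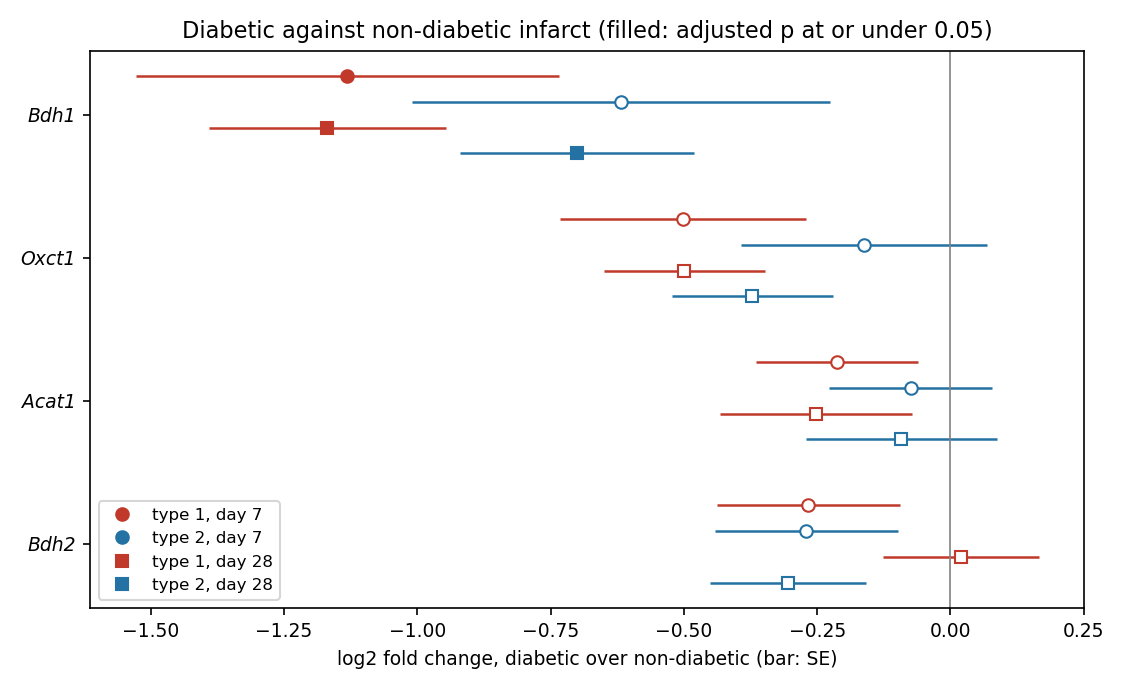
Log2 fold change of diabetic over non-diabetic tissue for the 4 members on each day, with bars of 1 SE; filled symbols passed edgeR's test at an adjusted p of 0.05. Bdh1 passes in type 1 tissue on both days and in type 2 tissue at day 28, and no other member passes.

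Between the 2 models at day 28, no member passed in edgeR or DESeq2, where 3.21 percent of all genes were called, and Bdh1 passed in limma-voom. Of the members, 2 of the 4 had an unadjusted p under 0.05, Bdh1 (0.044) and Bdh2 (0.0382). Bdh1 was at −0.47 in type 1 relative to type 2 tissue (SE 0.223, 95% interval −0.91 to −0.03, adjusted p = 0.28), and the 2 groups overlapped over most of their range. Oxct1 was at −0.13 (95% interval −0.43 to 0.17), Acat1 at −0.16 (−0.52 to 0.20) and Bdh2 at 0.32 (0.03 to 0.62, adjusted p = 0.263). With the cardiomyocyte covariate 3 of the 4 members were called lower in type 1 tissue, where that fit called 3.93 percent of genes lower. Bdh1 was then at −0.58 (SE 0.118, adjusted p = 0.00208), Oxct1 at −0.22 (SE 0.049, adjusted p = 0.00535) and Acat1 at −0.29 (SE 0.0644, adjusted p = 0.00561). The mean of the cardiomyocyte markers was 10.96 ± 0.228 log2 CPM (SD, n = 10) in type 1 and 10.77 ± 0.643 (SD, n = 10) in type 2 tissue, the latter including replicate 4 at 9.07.

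Whether a diabetic effect differed between the days was tested directly in a fit of all 55 libraries. The Bdh1 effect of type 1 diabetes was nearly equal on both days, with a difference (day 28 minus day 7) of −0.05 (SE 0.446, 95% interval −0.93 to 0.82), and that of type 2 diabetes differed by −0.11 (−0.98 to 0.76). These intervals are wide. For Oxct1, Acat1 and Bdh2 the differences lay between −0.24 and 0.28 in both models, with none of the 4 members called, where 12.5 percent of genes were called for type 1 and 1.51 percent for type 2. For Slc16a6 the type 1 effect was lower at day 28 by −0.49 (SE 0.131, adjusted p = 0.0087, with 5.5 percent of 20421 genes called lower), from 0.35 at day 7 to −0.13 at day 28.

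Among the ketone pathway genes followed in every within-day comparison, Slc16a1, the main monocarboxylate transporter of heart, and Aacs, a cytosolic enzyme that activates acetoacetate, were not called with all libraries in the fit. Slc16a1 fitted values lay between −0.30 and −0.02, and those of Aacs between −0.13 and 0.25. In type 1 tissue at day 7 Aacs passed without any 1 of non-diabetic replicate 4 and type 1 replicates 1 and 2 (0.29 to 0.31, adjusted p of 0.0295 to 0.0485).

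The ratio of Bdh1 to Oxct1 within a library, which scaling between libraries does not affect, asks whether the first step of ketone body use differed beyond the second. It was lower in both diabetic models than in non-diabetic tissue on both days. The part of heart muscle content in the ratio was not tested. At day 7 the ratio was lowest in type 1 replicate 7 (−5.61) and type 2 replicate 7 (−5.46), with cardiomyocyte marker means of 7.66 and 7.68 log2 CPM. Type 1 replicate 4, with the lowest marker mean of that day (6.20), was at −4.48. The log2 ratio at day 7 was −3.53 ± 0.371 (SD, n = 8) in non-diabetic, −4.42 ± 0.733 (SD, n = 8) in type 1 and −4.15 ± 0.611 (SD, n = 8) in type 2 tissue. Of the diabetic libraries 6 of 8 in type 1 and 4 of 8 in type 2 lay below every non-diabetic library. The difference was −0.89 for type 1 (exact permutation p = 0.00808, two-sided, adjusted p over 6 comparisons = 0.0162) and −0.62 for type 2 (exact permutation p = 0.0174, adjusted p = 0.0261).

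At day 28 the log2 ratio was −2.74 ± 0.164 (SD, n = 11) in non-diabetic, −3.43 ± 0.239 (SD, n = 10) in type 1 and −3.13 ± 0.316 (SD, n = 10) in type 2 tissue. The non-diabetic libraries were tightly grouped, and 8 type 1 and 5 type 2 libraries lay below all of them. The difference was −0.70 for type 1 (permutation test, p = 6e-05, adjusted p = 0.00036) and −0.40 for type 2 (permutation test, p = 0.002, adjusted p = 0.006). Type 1 was below type 2 by −0.30 (permutation test, p = 0.0277, adjusted p = 0.0332). That last call was lost without any 1 of type 1 replicates 1, 2, 6, 7 and 9 and type 2 replicates 1, 2, 3, 5 and 8, with values of −0.29 to −0.25 and adjusted p of 0.0532 to 0.0674. At day 7 the models differed by −0.27 (exact permutation p = 0.437).

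**Figure D3:**
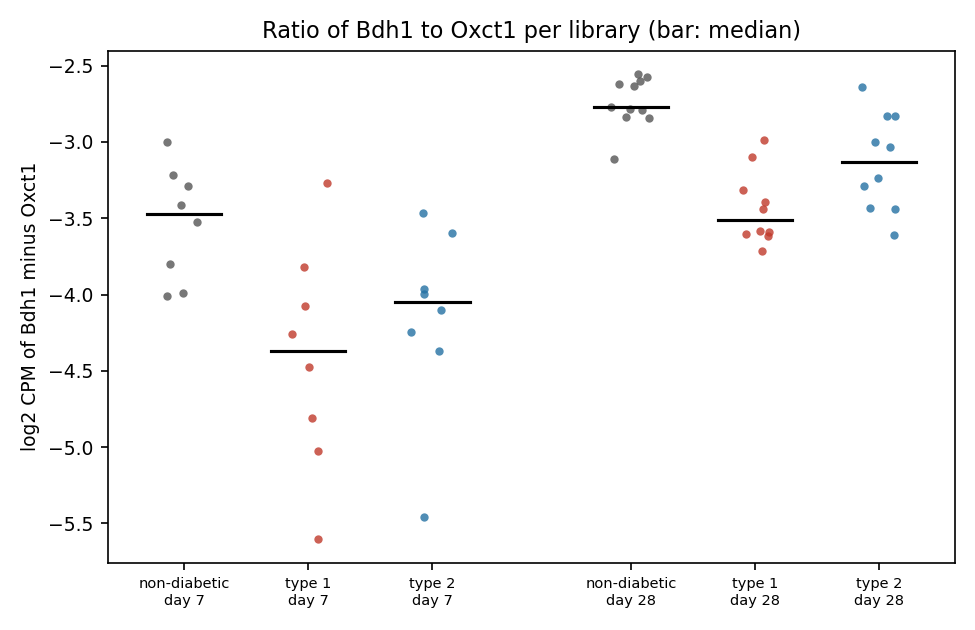
Log2 CPM of Bdh1 minus that of Oxct1 in each library, by group and day; points are libraries, bars are group medians. The ratio is below the non-diabetic level in both diabetic groups on both days, and 8 of 10 type 1 libraries at day 28 lie below every non-diabetic library.

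Within groups, the 3 mitochondrial enzyme genes followed the heart muscle content of the libraries and Bdh2 did not. Deviations of a gene from its group mean were set against those of the mean log2 CPM of the 20 cardiomyocyte markers over the 24 libraries of day 7 and the 31 of day 28, which makes 8 relations. For Bdh1, Pearson's r was 0.874 and Spearman's rho 0.91 at day 7 and 0.878 and 0.79 at day 28. For Oxct1 they were 0.867 and 0.837, and 0.96 and 0.904, and for Acat1 0.828 and 0.885, and 0.95 and 0.957. Each of these 6 relations had a permutation p of 1e-05, the smallest that 100000 resamples can give, and an adjusted p of 1.33e-05. The 2 libraries whose deviation of the marker mean from its group lay farthest from the median deviation were then left out. Without them r was 0.863 and 0.763 for Bdh1, 0.782 and 0.905 for Oxct1 and 0.859 and 0.942 for Acat1. Those libraries were type 1 replicate 4 and type 2 replicate 7 at day 7, and type 2 replicate 4 and non-diabetic replicate 3 at day 28.

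Bdh2 ran against the markers, with r = −0.566 and rho = −0.443 at day 7 (permutation p = 0.00501 and 0.0439, adjusted p = 0.00573 and 0.0439). At day 28 r was −0.382 and rho −0.404 (permutation p = 0.0842 and 0.0269, adjusted p = 0.0842 and 0.0308). Without the 2 farthest libraries r was −0.379 and −0.418. All genes of a library share its depth and its mix of cells, and which of them sets these relations was not tested.

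**Figure D4:**
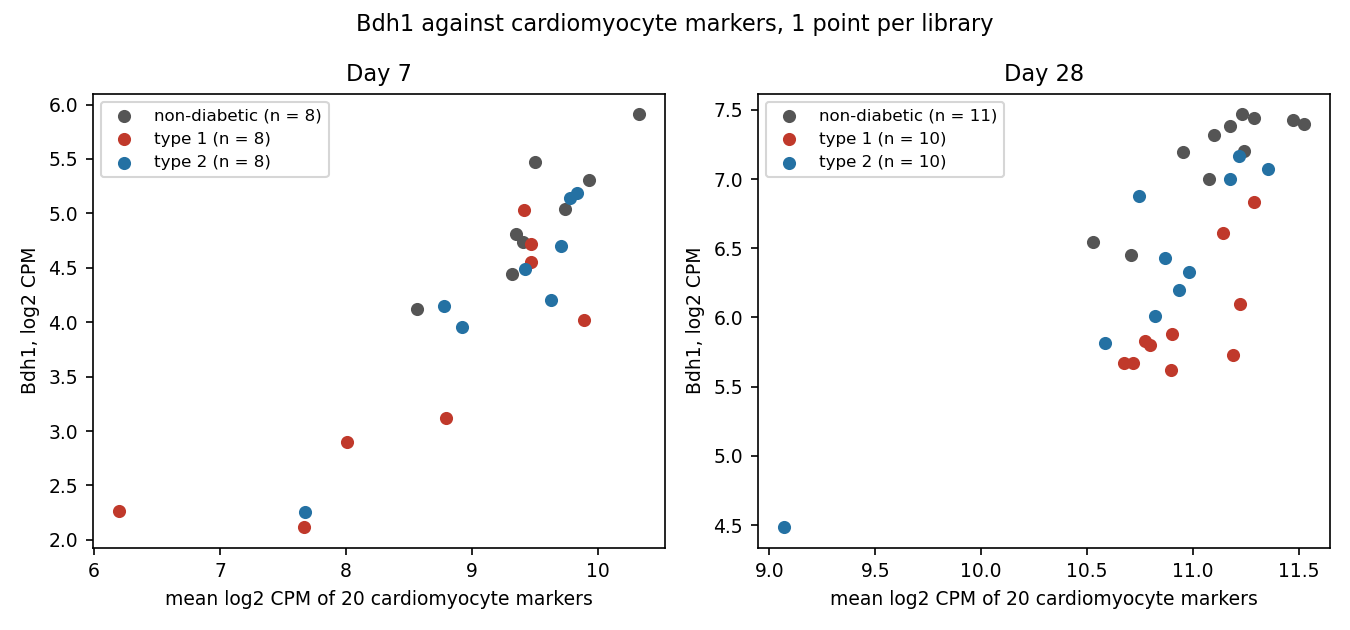
Log2 CPM of Bdh1 against the mean log2 CPM of 20 cardiomyocyte markers, 1 point per library, day 7 left and day 28 right, coloured by group. Bdh1 is higher where the markers are higher on both days, and at day 28 the type 1 libraries lie below the non-diabetic ones at like marker levels.

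The genes whose within-group pattern was most like that of each member were taken by the smaller of the 2 days' Pearson r among 12290 named genes, as a description over the 24 and 31 libraries. For Bdh1 they were Ckmt2, the mitochondrial creatine kinase of heart muscle (r = 0.932 and 0.924), Slc2a4, the insulin-responsive glucose transporter (0.925 and 0.919), Clybl (0.932 and 0.917) and Pdhb of the pyruvate dehydrogenase complex (0.914 and 0.916). For Oxct1 they were Ddo (0.977 and 0.957), Rtn4ip1 (0.971 and 0.953), Mmachc and Hrasls. For Acat1 they were Pdhb (0.964 and 0.974) and Sdhd, Ndufb5 and Cox6c, which encode respiratory chain subunits. A smaller r above 0.8 was reached by 394 genes for Bdh1, 502 for Oxct1 and 506 for Acat1. For Bdh2 it was reached by 0, and the closest genes were Evc (0.735 and 0.684), Ccdc80, which encodes a matrix protein, Matn2 (0.659 and 0.79), another matrix protein gene, and N4bp2l1.

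Genes on the opposite strand could add to the counts of Bdh1 and Oxct1, since the strand setting of the counting is not given in the sources used here. Gm15743 shares 533 exon bases with Bdh1 in the GRCm38 annotation and had at most 3.11 percent as many counts as Bdh1 in a library at day 7 and 1.13 percent at day 28. BC037032 shares 467 exon bases with Oxct1 and had at most 1.1 and 0.252 percent as many.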

How the data were processed

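RNA was extracted from infarct tissue and sequenced from stranded mRNA libraries, per the labels' protocols. The authors deposited raw counts per Ensembl gene, 1 table per day. The submitters' processing notes name the build mm39 and the tool DESeq2. Which aligner, counting tool, strand setting and annotation were used is not given in the sources used here. Of counts from 1 to 49, 76.4 percent (day 7) and 75.2 percent (day 28) were even, so counting error may exceed what the totals imply, and the tests use the spread between libraries. No library repeated another (at least 17.6 chi-square per gene between libraries of a group). Identifiers were paired with symbols through GENCODE M21 (GRCm38), for 51948 genes at day 7 and 51880 at day 28.

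Counts were tested in R 4.3.3 with edgeR 4.0.16: TMM scaling, filterByExpr (minimum count 10, total 15), glmQLFit and glmQLFTest on the 3 groups of a day together, and a gene was called at a Benjamini-Hochberg adjusted p of 0.05 or less. A fit of all 6 groups over genes of both tables (56867) tested differences between days. SE is the fold change divided by the square root of F. Levels are log2 CPM with a prior count of 2, and CPM per kb uses the union of GRCm38 exons. Of the statistical steps, only the main edgeR fit was tested on simulated counts, for type 1 against non-diabetic tissue on each day. Alternatives were DESeq2 1.42.0, limma 3.58.1 voom with quality weights, RLE scaling, no filter, only the compared groups, 2 marker covariates, a replicate block, each library left out, a prior count of 0.5 for the ratio, and sums of libraries sharing the first number of their name. The 4 members, the gene lists and the tests were chosen with earlier results of these data known. Named genes are the members, up to 4 called members per list with the smallest p, Slc16a1 and Aacs, and the 4 genes most like each member. Ppara, which was not called, and the full set of called erythroid markers are named outside this rule. Part of the ketone pathway list is not reported here.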

Additional observations from a re-analysis of the deposited data

Results flagged for a closer look

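Over the 4 members and the ratio of Bdh1 to Oxct1, 25 sets of values (1 measure in 1 group) were examined for 1 library far from the rest, and 6 had one. The non-diabetic group of day 28, the largest, was not examined. Chance flags about 1 in 20 independent sets, but these sets share libraries and their genes vary together, so that rate cannot be read against the 6, which come from 3 libraries. In type 2 tissue at day 28 replicate 4 was far below the other libraries for Bdh1 (4.48 log2 CPM), Oxct1 (8.09) and Acat1 (6.72), and its cardiomyocyte marker mean (9.07) was also the lowest of that day. In type 2 tissue at day 7 replicate 7 was far below for Bdh1 (2.26) and for the log2 ratio of Bdh1 to Oxct1 (−5.46), with the lowest marker mean of its group (7.68). In non-diabetic tissue at day 7 replicate 5 was far below for Oxct1 (7.12), with the lowest marker mean of its group (8.57). The part of the markers in the values was not tested.

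The type 1 effect on Slc16a6 differed between day 28 and day 7 by −0.49, by the test of the difference in edgeR. Day and sequencing project cannot be told apart.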

How the results depend on the processing

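RLE scaling and, for the ratio, a prior count of 0.5 changed no call or direction. Besides that prior count, the ratio was run only with each library left out. It was not run with summed libraries, a replicate block or the marker covariates. Bdh1 in type 1 tissue at day 28 was past the threshold under every alternative but the summed libraries. The cause of the changes below was not tested. Values are log2 fold changes.

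DESeq2 called Oxct1 for type 1 at day 28 (−0.50), with 1058 genes called for type 1 against type 2 at day 7, 1219 for type 1 at day 28, 1039 for type 1 against type 2 at day 28 and 638 for the day difference of type 2, where edgeR called 492, 759, 607 and 308. Voom called Oxct1 for type 1 at day 7 (−0.53) and day 28 (−0.55) and Bdh1 between the models at day 28 (−0.58), turned Bdh2 between the models at day 7 (−0.077) and the day difference of type 1 for Bdh1 (0.013), and called 2927, 3025 and 3907 genes for type 1 against type 2 at day 7, type 1 at day 28 and the day difference of type 1 (edgeR 2548). Without the filter Bdh1 lost its call for type 1 at day 7 (−1.13, adjusted p = 0.0536) and type 2 at day 28 (−0.70, adjusted p = 0.0517). Bdh2 between the models at day 7 (−0.0083) turned, and 823, 289, 440, 403 and 158 genes were called for type 2 at day 7, between the models at day 7, type 1 at day 28, between the models at day 28 and the day difference of type 2. With only the compared groups in the fit Bdh1 lost the same calls (−1.14 and −0.71, adjusted p = 0.0518 and 0.0582), Oxct1 for type 1 at day 28 passed (−0.51), and 983 genes were called between the models at day 7.

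With the cardiomyocyte covariate, Bdh1 for type 1 at day 7 was lost (−0.50), and Bdh2 for type 1 at day 7 (−0.47), Oxct1 for type 1 at day 28 (−0.36), the day difference of type 1 for Oxct1 (−0.41), and Bdh1 (−0.58), Oxct1 (−0.22) and Acat1 (−0.29) between the models at day 28 passed. At day 7 the sign turned for Acat1 (0.066) and Slc16a1 (0.18) in type 1, Oxct1 (0.0081) and Acat1 (0.010) in type 2, and Acat1 (0.055), Bdh2 (−0.12) and Slc16a1 (0.20) between the models; at day 28 it turned for Bdh2 (−0.021) in type 1 and Acat1 (0.19) in type 2. This fit called 1639 genes for type 1 at day 28, 1263 between the models at day 28 and 616 for the day difference of type 2. With the mitochondrial covariate, Oxct1 for type 1 (−0.37) and type 2 (−0.25) and Bdh1 (−0.44) and Acat1 (−0.17) between the models, all at day 28, passed. At day 7 the sign turned for Acat1 (0.027) and Slc16a1 (0.10) in type 1, Oxct1 (0.023), Acat1 (0.032) and Slc16a1 (0.0087) in type 2, and Bdh2 (−0.066) and Slc16a1 (0.10) between the models; at day 28 it turned for Bdh2 (−0.016) in type 1 and Acat1 (0.068) in type 2. It called 793 genes between the models at day 7, 1823 for type 1 and 1265 between the models at day 28, and 3868 and 755 for the day differences of type 1 and type 2.

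With libraries summed by the first number of their name, Bdh1 was at −1.09 for type 1 at day 7 (adjusted p = 0.0714), −0.98 for type 1 at day 28 (adjusted p = 0.166) and −0.70 for type 2 at day 28 (adjusted p = 0.117). The sign turned for Acat1 (0.039) and Slc16a1 (0.026) in type 2 at day 7, Bdh2 in type 1 at day 28 (−0.024) and Slc16a1 between the models at day 28 (0.031). It called 1459, 176 and 0 genes at day 7 and 6, 427 and 125 at day 28, for type 1, type 2 and the models against each other, from fewer samples. Within a day no first number was shared between groups, so an effect of what it marks cannot be told apart from one of the group.

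Correlations of same-numbered libraries ran from −0.37 to 0.37 at day 7 (24 pairs, 12 above 0.1) and from −0.42 to 0.34 at day 28 (30 pairs, 7 above 0.1). Of the libraries, 5 of 24 and 4 of 31 correlated best with their own number. The correlations of differently numbered libraries were not summarised beside these, so whether replicate numbers pair the libraries is not settled. With the replicate number as a block, Bdh1 for type 2 at day 28 was at −0.69 (adjusted p = 0.123), and 333 and 375 genes were called for type 1 and between the models at day 28. With a block within each day, the day difference turned for Bdh1 (0.16) and Oxct1 (0.026) in type 1 and Bdh1 (0.0011) in type 2, and 191 genes were called for type 2.

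Leaving out 1 library at a time moved the counts of genes called to 738 to 1975 for type 2 at day 7, 157 to 1112 between the models at day 7, 443 to 1163 for type 1 at day 28, 372 to 717 between the models at day 28 and 138 to 655 for the day difference of type 2. The ranges were −1.38 to −0.96 for Bdh1 and −0.63 to −0.38 for Oxct1 in type 1 at day 7, −0.55 to −0.47 for Oxct1 in type 1 at day 28, −0.81 to −0.59 for Bdh1 and −0.44 to −0.28 for Oxct1 in type 2 at day 28, and −0.35 to −0.25 for the Bdh1 to Oxct1 ratio between the models at day 28. Values near 0 changed sign. At day 7 these were Acat1 (−0.15 to 0.011) in type 2, and Bdh2 (−0.083 to 0.080) and Slc16a1 (−0.17 to 0.019) between the models. At day 28 they were Bdh2 (−0.030 to 0.073) and Aacs (−0.16 to 0.023) in type 1, Acat1 (−0.19 to 0.0014) in type 2, and Aacs (−0.034 to 0.11) and Slc16a1 (−0.11 to 0.054) between the models. Among the day differences they were Bdh1 (−0.23 to 0.20), Oxct1 (−0.14 to 0.12) and Acat1 (−0.14 to 0.027) in type 1, and Bdh1 (−0.29 to 0.026), Acat1 (−0.14 to 0.049) and Bdh2 (−0.16 to 0.0089) in type 2.

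Depth limits Hcar2 and Hmgcll1, at 7 to 27 counts in the median library, more than the members.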
